A study of Mus musculus with 2 samples.

Results

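The Rab genes were described at the level of open chromatin in primary mouse megakaryocytes, the marrow cells that shed platelets. They were taken as the protein-coding genes of the GENCODE M21 annotation (mouse build GRCm38, also called mm10) whose symbol is Rab followed by a number and an optional letter. That rule matched 59 symbols, and Rab27a, Rab27b and Rab3c were left out of the set by its definition, which leaves 56 of 21755 protein-coding genes. Names are those of the annotation, so that Rab7, Rab9 and Rab39 stand for the genes often written with a final a.

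Rab proteins are small GTPases of the Ras superfamily that mark the membranes of vesicles and organelles. A guanine nucleotide exchange factor (GEF) loads a Rab with GTP on its target membrane, the loaded form recruits effectors that move, tether and fuse vesicles, and a GTPase-activating protein (GAP) returns it to the GDP-bound form. In megakaryocytes and platelets such traffic builds and releases alpha granules, dense granules and lysosomes.

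The data came from ATAC-seq, an assay in which the Tn5 transposase cuts and tags DNA where chromatin is accessible. The series held 1 group of 2 biological replicates with 50000 cells each, labelled C57BL/6J, male, adult and 5 to 6 weeks old. The labels name no genotype other than the strain and no treatment, both replicates carry 1 donor record, and sequencers are listed for replicate 2 alone. Whether cells of several animals were pooled, and how the megakaryocytes were obtained, is not stated there. With 1 group there was no contrast to test, so all values below are descriptions of these 2 samples, and their spread may be technical.

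The deposited lists held 108778 peaks in replicate 1 and 114523 in replicate 2, without read counts. Sequencing depth is therefore unknown, and a missing region means only that none was listed. Overlapping peaks of a list were merged, and a region was called shared where regions of both replicates overlapped by at least 1 bp, which gave 69539 shared regions. Of the 15 megakaryocyte markers examined, 7 had a shared region at a transcript start, among them Itga2b at 13.9-fold and 13.0-fold enrichment and Pf4 at 4.07-fold and 5.06-fold, whereas Gp1ba, Gp1bb, Gp5, Gp6, Gp9, Ppbp and Tubb1 were among those that had none. The same held for 7 of 8 neutrophil, 6 of 8 monocyte and macrophage, 4 of 8 erythroid, 3 of 6 B cell, 2 of 6 mast cell, 1 of 6 T cell, 1 of 6 endothelial and 0 of 6 hepatocyte markers. Over all protein-coding genes the share was 59.8%. The megakaryocyte markers lay below it at 46.7%. Only the neutrophil markers (87.5%) and the monocyte and macrophage markers (75%) lay above it. What share of the signal at the Rab genes came from other marrow cells was not tested.

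A gene was called open where any of its annotated transcripts began no more than 500 bp from a shared region. By that rule 49 of the 56 Rab genes were open (87.5%), beside 59.8% of all protein-coding genes. The 7 Rab genes that were not open were Rab17, Rab19, Rab25, Rab33a, Rab34, Rab39b and Rab9b. With only the 5′ end of each gene as its start, 47 were open, beside 54.4% of all coding genes. In the authors' stricter lists, thresholded on the irreproducible discovery rate (IDR) in each replicate, 46 were open, beside 53.0%.

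The strength of a promoter is given as the fold enrichment of its strongest shared region over local background, a ratio taken from the deposited lists. The median over the 49 open Rab genes was 11.7, with quartiles of 10.5 and 13.7, and over all 13004 open coding genes it was 11.5, with quartiles of 8.66 and 14.3. By fold, the Rab promoters thus covered the middle of the distribution more than its ends. They ranged from 3.58 to 18.1, whereas all open genes ranged from 2.56 to 24.3. Above the median of all open genes lay 29 Rab genes, and 1 of them, Rab12, lay above the 90th percentile of 16.5. The width of the strongest region was alike, at a median of 870 bp for the Rab genes and 873 bp for all open genes. The lists also give a −log10 p-value for each peak. Its median over the same regions was 100 for the Rab genes and 77.4 for all open genes. Promoters are ranked by fold below unless stated otherwise.

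**Figure D1:**
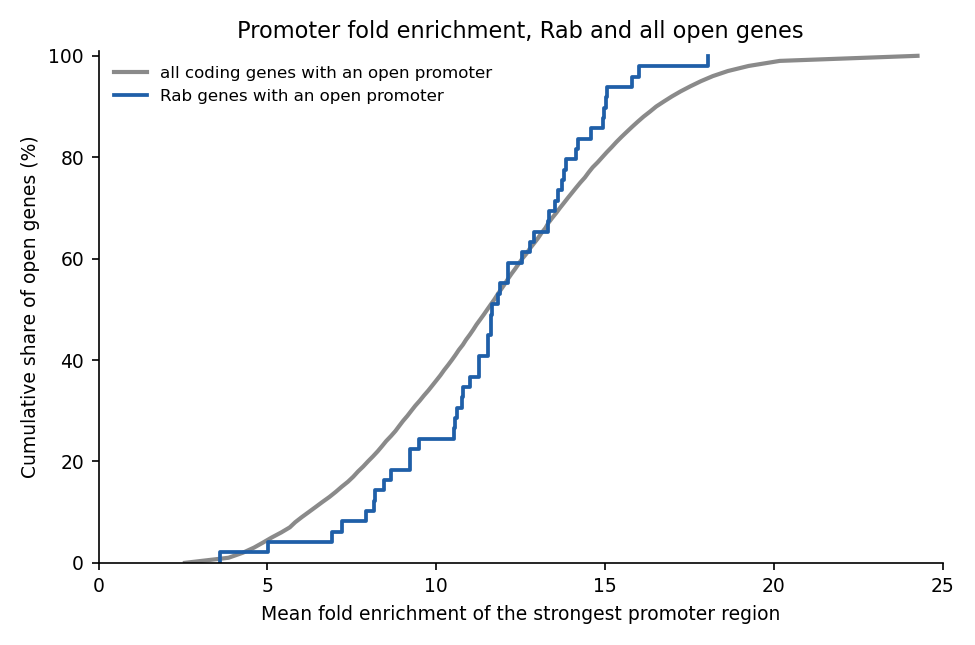
Cumulative share of open genes (%) against the mean fold enrichment of the strongest promoter region, for the 49 open Rab genes (blue steps) and the 13004 open coding genes (grey). The curves meet near the medians of 11.7 and 11.5, and the blue curve starts to climb later and ends earlier, with Rab12 as its last step at 18.1.

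Replicates lay close together at these promoters. The median absolute log2 ratio between replicates was 0.06 over the open Rab genes and 0.09 over all open genes. Replicate 1 was higher at 33 of the 49 Rab promoters (67.3%), beside 62.6% of all open genes. The replicates lay within 1.2-fold of each other at 46 Rab promoters (93.9%, beside 91.4% of all open genes), and the 3 exceptions were Rab4a, Rab6b and Rab7b. Rab4a, which acts in fast recycling from early endosomes, had 4.15 in replicate 1 and 3.02 in replicate 2. Rab6b had 5.47 and 4.55, and Rab7b had 8.94 and 7.44.

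**Figure D2:**
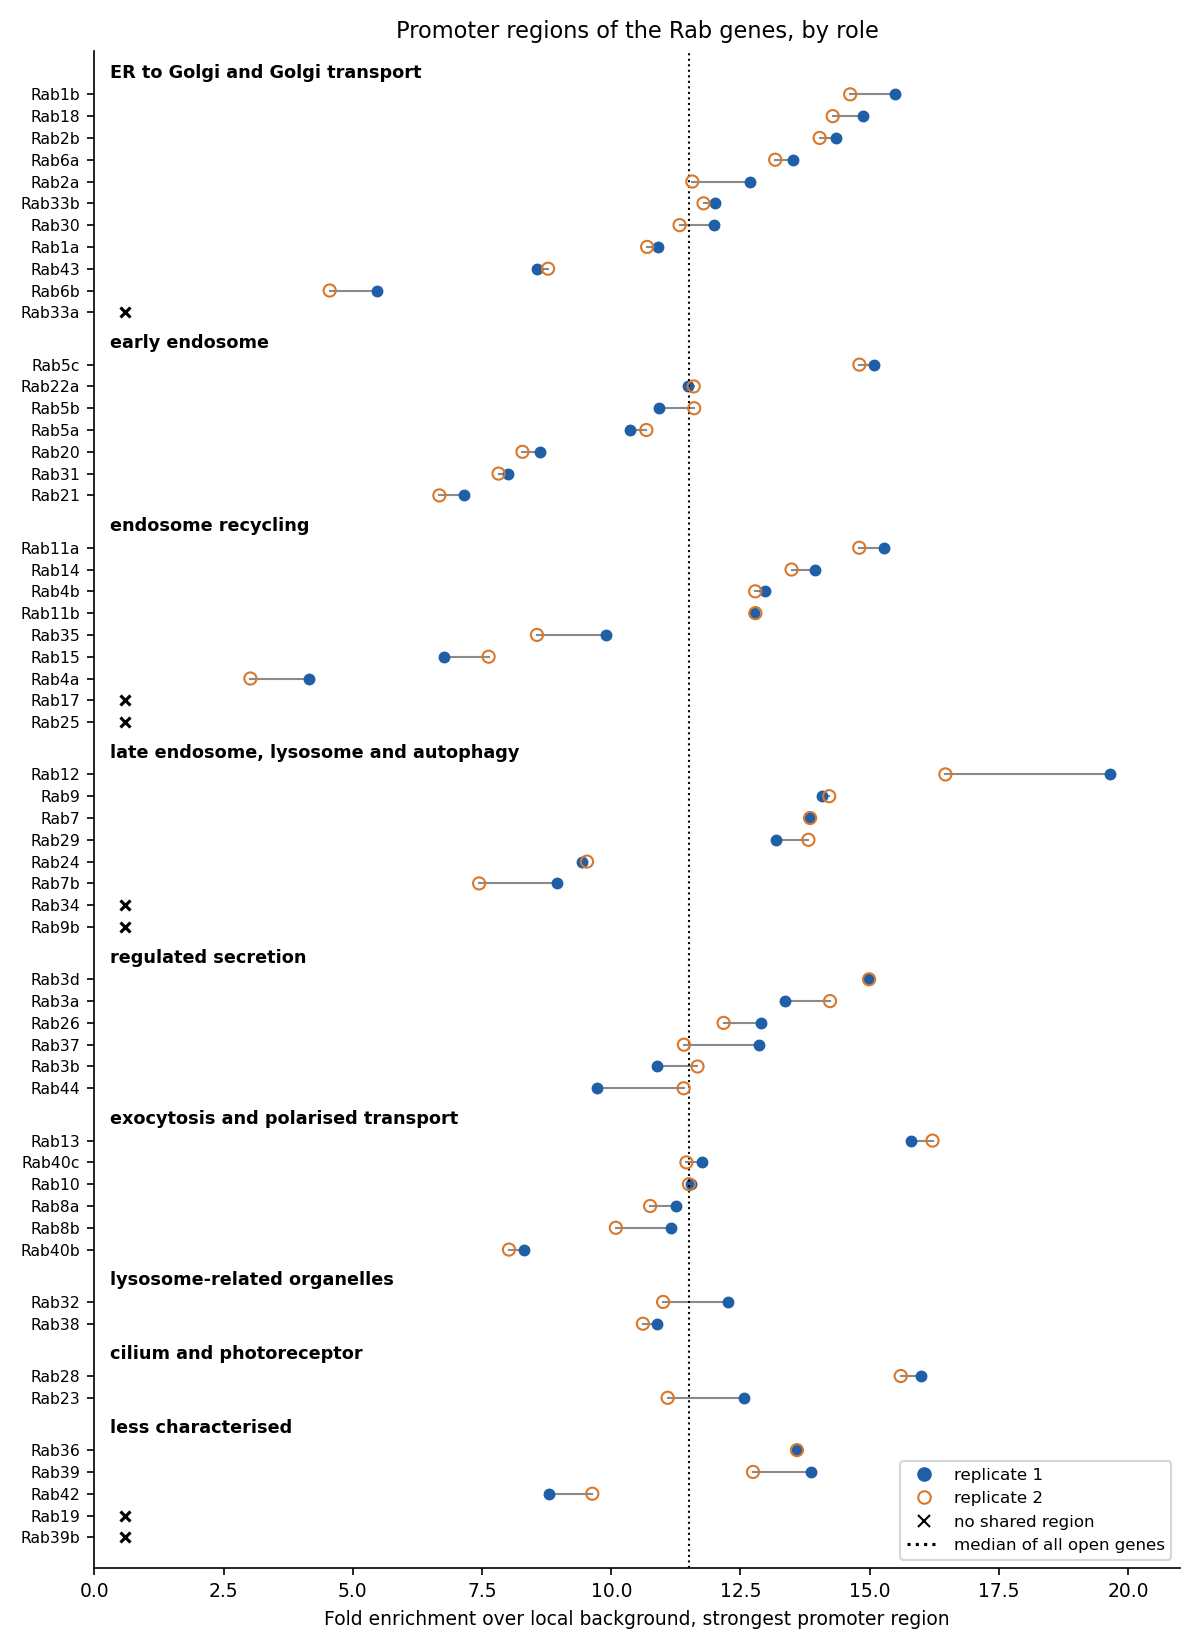
Fold enrichment of the strongest promoter region of each of the 56 Rab genes, grouped by role, in replicate 1 (filled blue) and replicate 2 (open orange), joined by a line. Crosses mark the 7 genes with no shared region, which have no value, and the dotted line is the median of all open coding genes, 11.5.

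Among the Rab genes of transport from the endoplasmic reticulum to and within the Golgi, 10 of 11 were open, with a median of 12.0. Rab1b, which with Rab1a drives traffic into the Golgi, had 15.5 in replicate 1 and 14.6 in replicate 2. Rab1a had 10.9 and 10.7, below its paralogue in both replicates by fold. By −log10 p-value Rab1a was above it, with 114 and 116 beside 84.3 and 80.8. Rab2b, a Golgi Rab, had 14.4 and 14.0, and Rab2a had 12.7 and 11.6. Rab18, known from the endoplasmic reticulum and lipid droplets, had 14.9 and 14.3, with the region far inside the gene as described further on. Rab6a, the ubiquitous Rab of retrograde Golgi traffic, had 13.5 and 13.2, whereas its paralogue Rab6b, best known from brain, had values of 5.47 and 4.55 that lay below every other open gene of this role. The mean values of the remaining open members were 11.9 for Rab33b, which binds the autophagy protein Atg16l1, 11.7 for Rab30 and 8.67 for Rab43. Rab33a alone of this role was not open.

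All 7 Rab genes of the early endosome were open, with a median of 10.5. Rab5c, one of 3 isoforms of the Rab that drives early endosome fusion, had 15.1 and 14.8. The other isoforms were lower by fold in both replicates, with 10.9 and 11.6 for Rab5b and 10.4 and 10.7 for Rab5a. By −log10 p-value Rab5b was above Rab5c in replicate 2, at 146 beside 130. Rab21, which binds integrin tails and moves integrins through endosomes, had 7.16 and 6.67. Rab31, a Rab5 relative of the trans-Golgi and endosomes, had 8.01 and 7.82. These were among the 5 lowest open Rab promoters, while Rab22a with a mean of 11.5 and Rab20 with 8.45 lay between.

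Of the 9 Rab genes of endosome recycling, 7 were open, with a median of 12.8. Rab11a, the main Rab of the slow recycling endosome, had 15.3 and 14.8. Its close relative Rab11b had 12.8 in both replicates. The other member of that subfamily, Rab25, which is known mainly from epithelia, was not open, and neither was Rab17, another epithelial Rab. Rab4b had 13.0 and 12.8, and these exceeded the 4.15 and 3.02 of Rab4a, the lowest open Rab promoter. Rab15, an endosomal Rab best known from neurons, had 6.76 and 7.63. Rab14, of the Golgi and endosomes, had 13.9 and 13.5, and Rab35, which recycles cargo to the plasma membrane, had 9.89 and 8.56.

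Late endosome, lysosome and autophagy Rab genes were open in 6 of 8 cases, with a median of 13.7. Rab12, which sends cargo from recycling endosomes to lysosomes, had the highest value of all Rab genes, 19.6 in replicate 1 and 16.5 in replicate 2 (18.1 ± 2.25, SD, n = 2), but it was not open where the regions of the replicates had to overlap by 50% of each. Its 2 replicates lay further apart on the linear scale than those of other Rab promoters. Rab7, the Rab of fusion with lysosomes, had 13.8 in both replicates. Rab9, which returns receptors from late endosomes to the Golgi, had 14.1 and 14.2, and Rab29, which recruits the kinase Lrrk2, had 13.2 and 13.8. Rab24, linked to autophagy, had a mean of 9.48. Rab7b, with 8.94 and 7.44, was the lowest open gene of this role, and Rab34 and Rab9b were not open.

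All 6 Rab genes of regulated secretion in the set were open, with a median of 12.3. Rab3d, a Rab of secretory granules in non-neuronal cells, had 15.0 in both replicates. Rab3a, the synaptic vesicle Rab, had 13.4 and 14.2, and Rab3b had 10.9 and 11.7. Rab26 had 12.9 and 12.2, and its relative Rab37, both known from secretory granules, had 12.9 and 11.4. Rab44, a large atypical Rab with EF-hand domains that is known from granule release in mast cells, had 9.72 and 11.4. Rab3a, Rab3b and Rab44 were higher in replicate 2, and Rab26 and Rab37 in replicate 1.

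All 6 Rab genes of exocytosis and polarised transport were open as well, with a median of 11.3. Rab13, known from tight junctions, had 15.8 and 16.2. Its 5′ end lies 44 bp from that of the divergent ribosomal protein gene Rps27, the only coding gene found within 1 kb in that arrangement, so that the region cannot be assigned to 1 of the genes. The others were closer to the centre, with means of 11.6 for Rab40c, 11.5 for Rab10, which moves glucose transporter vesicles in fat cells, 11.0 for Rab8a and 10.6 for Rab8b. Rab40b, which like Rab40c carries a SOCS box that recruits a ubiquitin ligase, had a mean of 8.17 and was not open in the IDR lists.

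The lysosome-related organelles include melanosomes and the dense granules of platelets. Both Rab genes of this role were open. Rab32 had 12.3 and 11.0, and Rab38, the gene mutated in the chocolate coat colour mouse, had 10.9 and 10.6. Both lay near the median of all open genes, with Rab38 below it in both replicates. Of the cilium and photoreceptor Rab genes, Rab28, which is needed in photoreceptor cells, had 16.0 and 15.6. Rab23, a negative regulator of Hedgehog signalling, had 12.6 and 11.1. Of the 5 less characterised genes, Rab36 had 13.6 in both replicates, Rab39 had 13.9 and 12.7, Rab42 had 8.80 and 9.63, and Rab19 and Rab39b were not open.

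Of the 18 subfamilies with more than 1 member, 12 had every member open and 6 held both open and not open genes. Those 6 were Rab9 with Rab9b, Rab33b with Rab33a, Rab36 with Rab34, Rab39 and Rab42 with Rab39b, Rab11a and Rab11b with Rab25, and Rab30 and Rab43 with Rab19. The open members of these subfamilies had means from 8.67 for Rab43 to 15.0 for Rab11a. Of the 4 Rab genes on the X chromosome, Rab9 was open and Rab33a, Rab39b and Rab9b were not, so 1 of 4 was open (25%, beside 41.5% of all X-linked coding genes). On the autosomes 48 of 52 were open (92.3%, beside 60.6%). This split by chromosome was looked at after the values had been seen, and with 4 genes it is a description only.

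Stretches of promoter are shown for members of the split subfamilies, to set open and not open relatives side by side. They were cut at fixed distances from the start and were not aligned. Rab33b, the open relative of Rab33a, is not shown. RefSeq promoters (build GRCm38.p6) were matched by symbol for 46 of the 56 genes, and the 120 bases from 150 to 31 bases before the start are given 5′ to 3′ on the strand of the gene, with each CpG dinucleotide in capitals. Rab39 (chr9:53706263-53706382, minus strand, open) and Rab11a (chr9:64737787-64737906, minus strand, open) are followed by their relatives Rab39b (chrX:75578262-75578381, minus strand) and Rab25 (chr3:88548310-88548429, minus strand), which were not open. Rab33a (chrX:48519135-48519254, plus strand), which had a region in replicate 1 only, comes last. No base of these stretches lies in an annotated exon.
Rab39: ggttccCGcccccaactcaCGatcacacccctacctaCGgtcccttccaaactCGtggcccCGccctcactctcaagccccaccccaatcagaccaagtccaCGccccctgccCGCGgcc
Rab39b: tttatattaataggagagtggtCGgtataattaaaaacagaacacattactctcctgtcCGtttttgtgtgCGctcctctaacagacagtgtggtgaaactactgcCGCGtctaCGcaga
Rab11a: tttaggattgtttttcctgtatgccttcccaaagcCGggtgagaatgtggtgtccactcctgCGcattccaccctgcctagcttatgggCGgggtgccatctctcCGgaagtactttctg
Rab25: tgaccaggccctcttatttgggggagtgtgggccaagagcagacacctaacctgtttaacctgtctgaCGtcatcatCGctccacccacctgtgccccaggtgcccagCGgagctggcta
Rab33a: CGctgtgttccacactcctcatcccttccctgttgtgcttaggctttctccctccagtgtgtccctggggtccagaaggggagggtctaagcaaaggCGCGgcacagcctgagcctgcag

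The stretch of Rab39 holds 8 CpG and that of Rab39b 6, while GC content is 67.5% in Rab39 and 42.5% in Rab39b. Rab11a holds 4 CpG, and Rab25 and Rab33a hold 3 each. Over the matched genes the median was 9 CpG in open members, with a range of 2 to 18, and 3 in members that were not open, with a range of 2 to 11. Over all 32851 RefSeq promoters of the table the median was 3. The Rab genes without a match were all open. Among them were Rab18, Rab7b, Rab44 and Rab26, the open Rab genes poorest in CpG by the ratio given below. The medians of open and not open members thus rest on unlike coverage. For Rab17, which was not open, the matched start lay 1994 bp from the annotated 5′ end.

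CpG content was also taken over 500 bp to each side of the 5′ end, as the ratio of observed to expected CpG. The median ratio was 0.73 in open and 0.43 in not open Rab genes, and 0.71 and 0.22 in all open and not open coding genes. A ratio of at least 0.6 was found in 67.9% of the Rab genes and in 46.3% of all coding genes. In that class 36 of 38 Rab genes were open (94.7%), beside 87.4% of all coding genes of the class. Under 0.6, 13 of 18 were open (72.2%), beside 35.9%. The CpG-poor class is not alike in the 2 sets, since 11 of the 18 Rab genes had a ratio of 0.4 to under 0.6 and 1 had a ratio under 0.2, whereas 4917 of the 11678 coding genes lay under 0.2. From 0.4 to under 0.6, 9 of 11 Rab genes were open, beside 64.9% of coding genes. From 0.2 to under 0.4 it was 3 of 6, beside 37.0%, and under 0.2 it was 1 of 1, beside 17.1%.

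Among CpG-poor open genes were Rab7b with a ratio of 0.23, Rab44 with 0.24 and Rab26 with 0.30. The ratios of 0.17 at Rab18 and 0.51 at Rab37 belong to 5′ ends that were themselves not open. Both genes are counted as open in the CpG classes above by a start inside the gene. Rab18 is the 1 Rab gene under 0.2. On the other side, Rab39b with 0.75 and Rab34 with 0.69 were not open in spite of CpG-rich starts. Within the open Rab genes, CpG ratio and fold enrichment ran without a common trend, with a Spearman rho of -0.05 over 49 genes, and 0.15 over all open genes. All points share the 2 libraries, and the coefficients are descriptions.

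**Figure D3:**
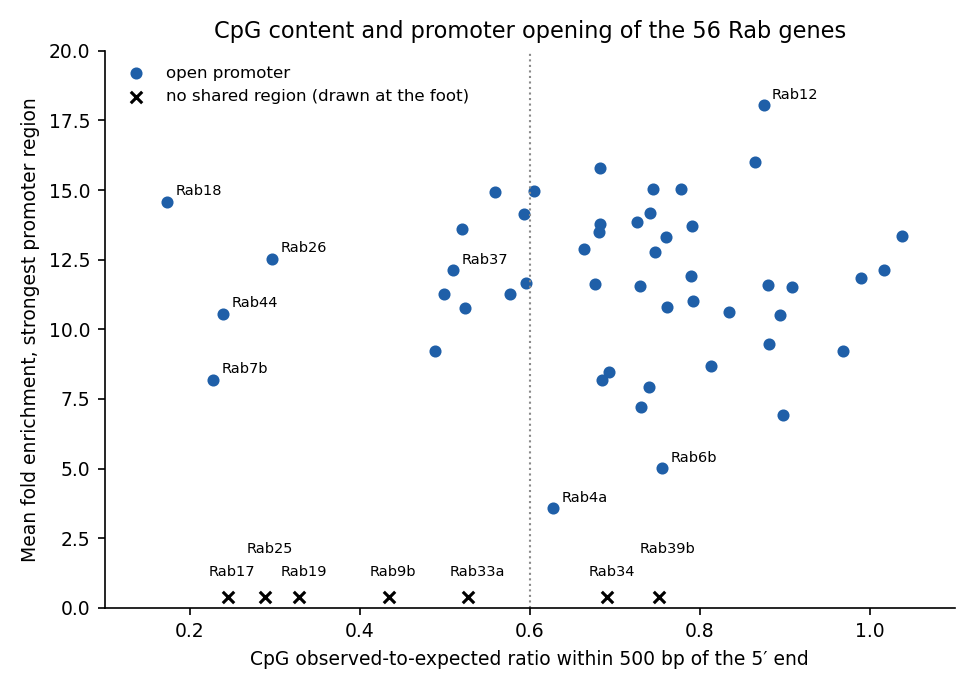
Mean fold enrichment of the strongest promoter region against the CpG observed-to-expected ratio within 500 bp of the 5′ end, for the 49 open Rab genes (dots) and the 7 that were not open (crosses at the foot, with no value). The dotted line marks the ratio of 0.6, above which 36 of 38 genes were open.

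The 7 genes that were not open differed in what lay around them. Rab34, a Rab of cilium formation and lysosome position on chromosome 11, had regions in both replicates that did not overlap, at 3.50-fold in replicate 1 and 4.66-fold in replicate 2. Rab33a, at chrX:48519285-48530232, had a region 87 bp from its start in replicate 1 alone, at 3.99-fold. No region of either replicate lay within 500 bp of a start of the other 5 genes. Rab34 and Rab33a thus had listed regions that were not shared, and the other 5 had nothing listed there. Such regions were found at 2 of the 7 Rab genes, beside 579 of the 8751 coding genes that were not open.

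Rab19, a less characterised Rab on chromosome 6, had a shared region 1053 bp upstream of its start, with 7.49 in replicate 1 and 7.41 in replicate 2. A further region 1496 bp upstream had 10.01 and 9.15. Rab25 on chromosome 3 had a region in an intron, 1.49 kb from the nearest start, with 7.40 and 7.13. Rab17 on chromosome 1 had one 3.65 kb upstream, with 10.5 and 10.4. These 3 genes therefore had starts that were not open next to shared regions that exceeded the weakest open Rab promoters. Rab9b on chromosome X had none nearer than 48.2 kb. Rab39b, also on chromosome X, had none within 50 kb at all, and its nearest shared region lay 63.3 kb away.

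At 3 open genes the strongest region was not at the 5′ end of the gene (6.12%), beside 14.7% of all open genes. In Rab28, on chromosome 5, it lay 80.5 kb into the gene at an annotated start, and the 5′ end was open too, with 13.7 in replicate 1 and 12.0 in replicate 2. In Rab37, on chromosome 11, it lay 62.7 kb in and the 5′ end was not open, and the same held for Rab18, 31.2 kb in. More than 1 shared promoter region was found at 7 of the 49 open Rab genes (14.3%, beside 24.0% of all open genes), although the Rab genes had a median of 4 annotated starts, beside 3. Rab43 and Rab11a had 4 such regions each, the most of any Rab gene.

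Motifs were counted within 100 bp of the summit of the strongest promoter region, in windows of 201 bp and on both strands. They are plain letter matches, with no score, and none of the motifs named contains another. The GC box GGGCGG of Sp and Klf factors was found at 32 of 49 Rab promoters (65.3%, beside 59.8% of such windows over all open genes) and CCAAT, the NF-Y box, at 19 (38.8%, beside 32.3%). The ETS motif CCGGAAG was found at 5 (10.2%, beside 16.1%). AGATAA, the GATA motif, was at 0 of 49, beside 2.66%, and TATAAA was at 0, beside 2.72%. These shares lay within a few genes of those of promoters in general.

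A distal region was a shared region with no part within 1 kb of any transcript start of any gene. Such regions were counted within 50 kb of any start of a Rab gene. At least 1 was found at 52 of the 56 Rab genes (92.9%), beside 77.3% of all coding genes, and Rab11b, Rab32, Rab39b and Rab42 had none. The median was 3 per gene for the Rab genes and for all coding genes, and the means were 3.93 and 3.67. In all 220 distinct regions were counted, and none lay near 2 Rab genes. Their median fold enrichment was 7.53, and it was 7.12 over all 48720 distal regions, with a median width of 417 bp in both cases. Replicate 1 was the higher one at 90 of the 220 (40.9%), beside 35.4% of all distal regions, the opposite lean from that at promoters.

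Distance does not assign a region to a gene. Of the 220 regions, 105 had a Rab gene as their nearest coding start and 115 lay nearer to another coding gene. By place, 126 had their summit in an intron of some gene (57.3%), 24 in an exon and 70 between genes, and 74 lay inside the Rab gene itself. The matching shares over all distal regions were not counted, so these splits cannot be read as particular to the Rab genes. Among open Rab genes, promoter strength and the number of distal regions had a Spearman rho of -0.26, and of -0.20 over all open genes.

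**Figure D4:**
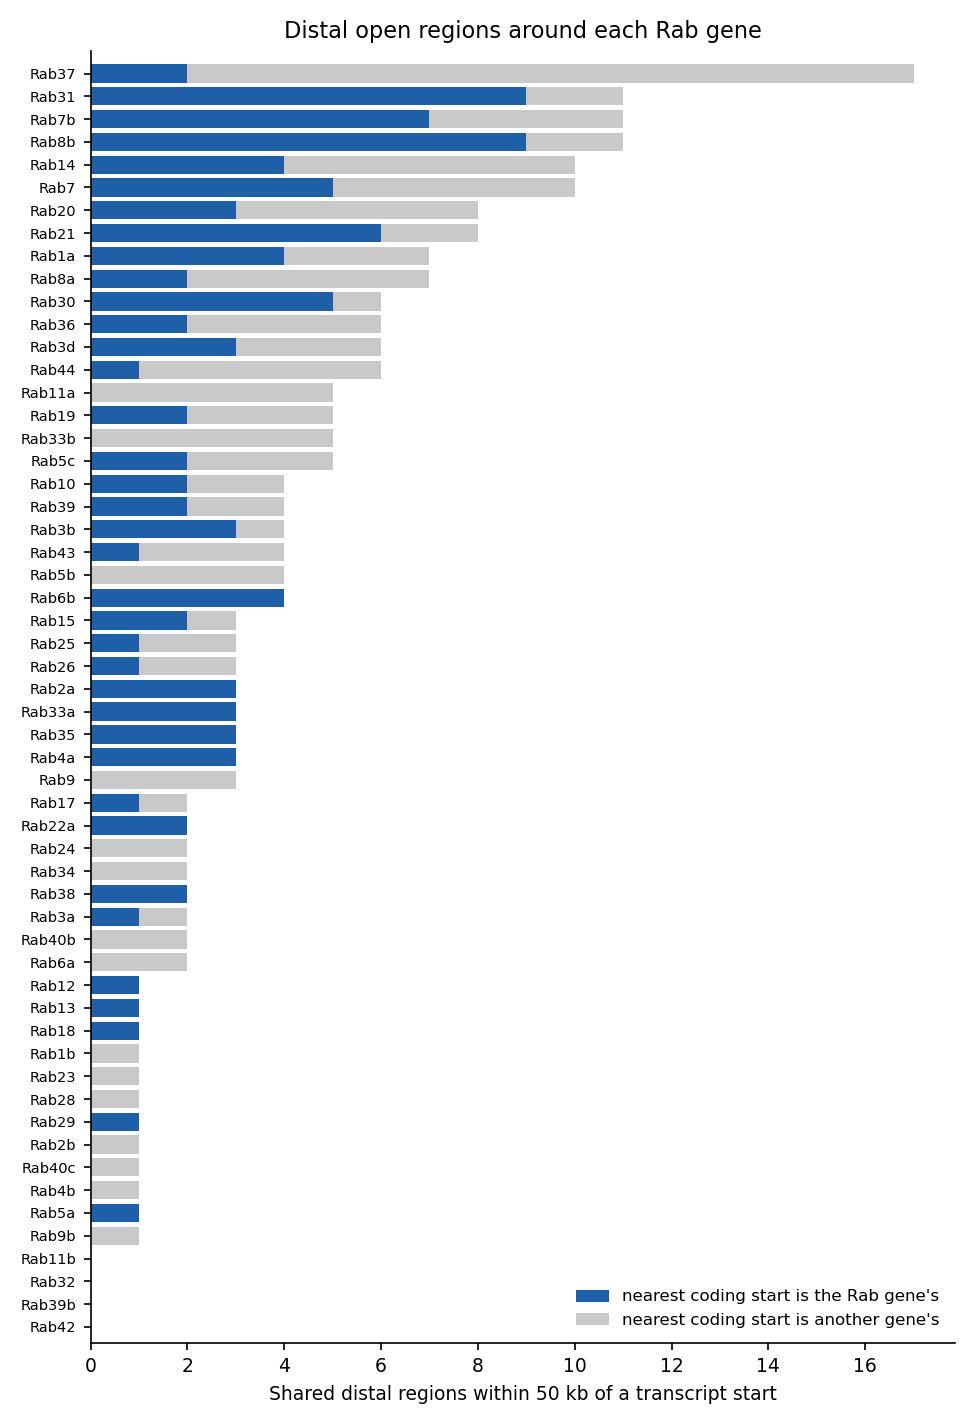
Number of shared distal regions within 50 kb of a transcript start of each of the 56 Rab genes, with those nearest to the Rab gene in blue and those nearest to another coding gene in grey. Rab37 leads with 17, of which 2 are nearest to it, and Rab11b, Rab32, Rab39b and Rab42 have 0.

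The early endosome genes had a median of 5 distal regions and the genes of regulated secretion also 5, the highest of the roles. The late endosome and lysosome genes had 2, and the lysosome-related organelle and cilium genes 1 each. Over all coding genes the median was 3. These medians also count regions that lay nearer to other coding genes. At least 10 were found at 6 Rab genes (10.7%), beside 7.55% of all coding genes. These were Rab37 with 17, Rab31, Rab7b and Rab8b with 11 each, and Rab7 and Rab14 with 10 each. Rab20, a hypoxia-induced endosomal Rab, and Rab21 followed with 8, and Rab1a and Rab8a with 7.

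Most regions counted at Rab37 lay nearer to the starts of other coding genes. Of its 17 regions 2 were nearest to Rab37, while 6 were nearest to Nat9, 4 to Cd300lf, 3 to Cd300e, and 1 each to Cd300ld3 and Slc9a3r1. The 4 nearest to Cd300lf had their summits inside Rab37, so place and nearest start differ for them. The Cd300 genes encode receptors of myeloid cells, and Cd300lf lies within the span of Rab37. The strongest of these regions, with its summit in an exon where the spans of Rab37 and Cd300lf overlap, had 13.2 in replicate 1 and 13.0 in replicate 2. The 2 regions nearest to Rab37 lay 10.2 kb and 7.47 kb upstream, with 10.6 and 10.03 at the first and 8.72 and 7.39 at the second.

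Rab31 and Rab8b showed the opposite arrangement. At Rab31 9 of 11 regions lay in its own introns and were nearest to it, and 8 of these were spread from 22.8 to 48.3 kb into a gene that spans 121 kb. The strongest had 12.0 and 10.6, above the Rab31 promoter in both replicates. At Rab8b 10 of 11 lay within the gene, most of them between 3-fold and 7-fold, and the strongest intronic one had 10.6 and 8.41. A stronger region 19.2 kb upstream, at 14.8 and 14.5, lay nearer to Rps27l.

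Rab7b held 6 of its 11 regions, with the strongest of them at 9.62 in replicate 1 and 10.2 in replicate 2. The 3 regions nearest to Ctse, the upstream neighbour, included the strongest of the window, at 13.2 and 12.1. For Rab7, 5 of 10 were nearest to it, and the most enriched lay upstream rather than inside. At Rab14 4 of 10 were nearest to it, of which the region 13.7 kb upstream had 14.4 and 13.7, as high as the Rab14 promoter. That 8.20 kb upstream had 9.77 and 14.1, a wider spread between replicates than at any Rab promoter named here.

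**Figure D5:**
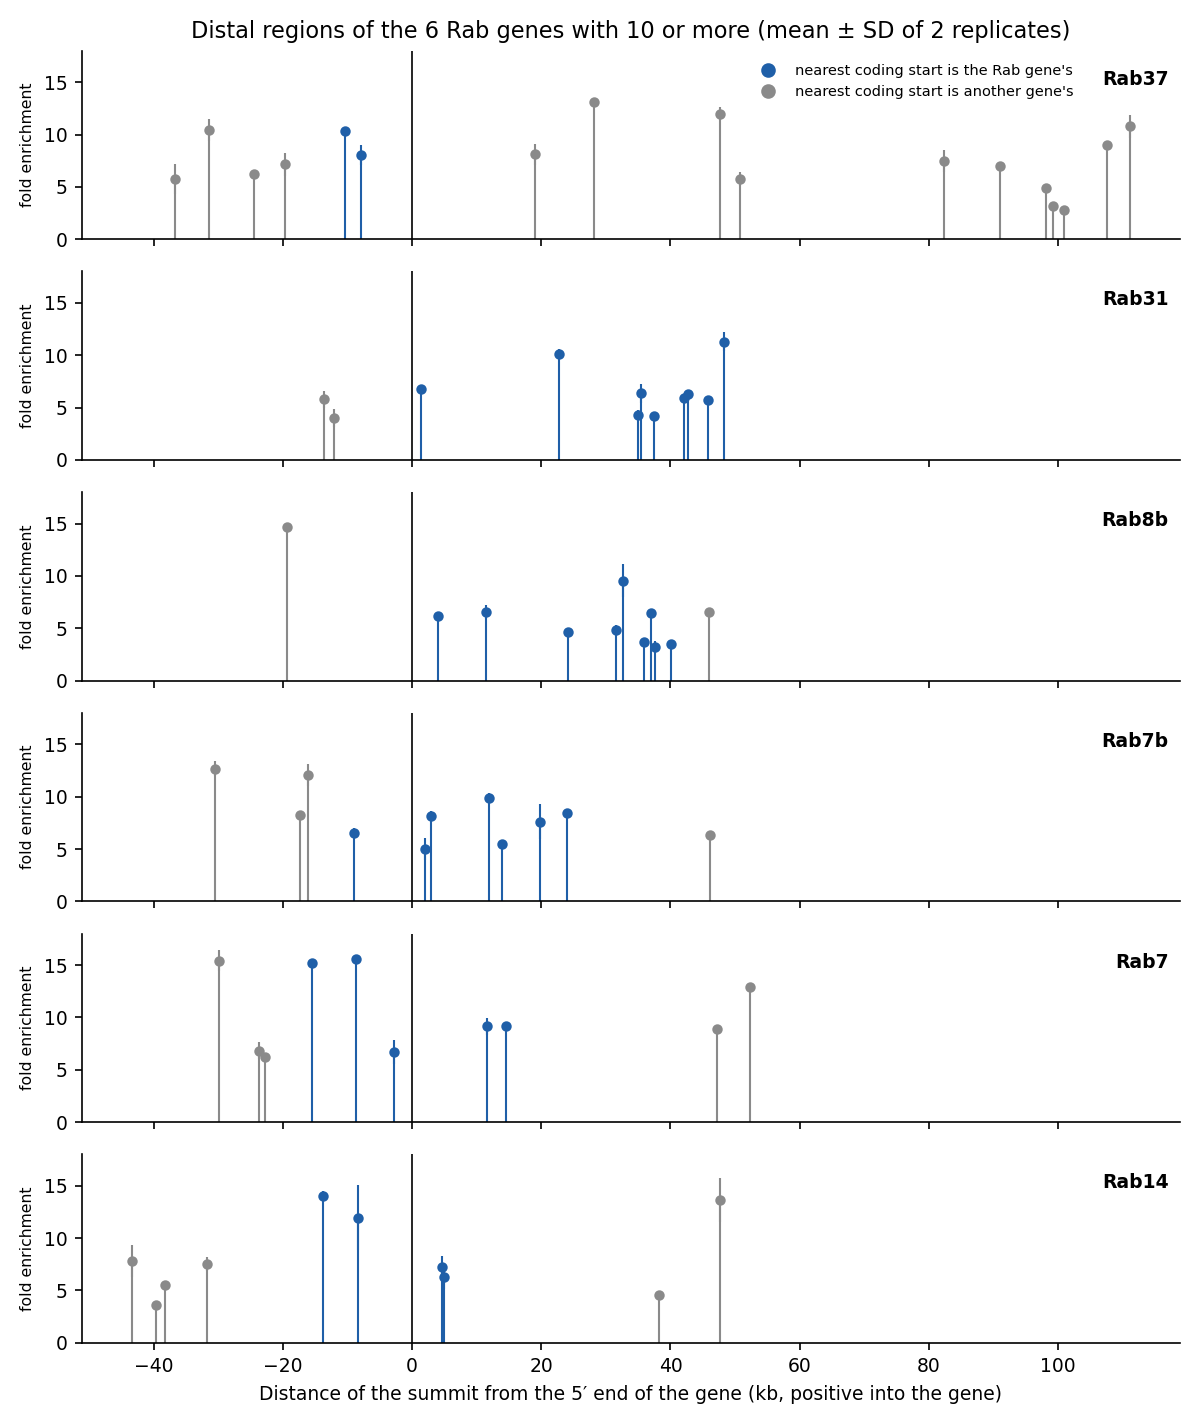
Fold enrichment (mean ± SD, n = 2) of the distal regions of the 6 Rab genes with 10 or more, against the distance of the summit from the 5′ end (kb, positive into the gene). Blue marks regions whose nearest coding start is that of the Rab gene; at Rab31 and Rab8b they lie inside the gene, at Rab37 only 2 of 17 are blue.

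Summit windows are shown for the 6 strongest distal regions whose nearest coding start was that of a Rab gene. Each is 201 bases centred on the summit, read 5′ to 3′ on the plus strand of GRCm38, with matches to the searched motifs in capitals on either strand. The first is that of Rab6b, at chr9:103092252-103092452 in an intron of Slco2a1, and the next are those of Rab10 (chr12:3291119-3291319), Rab39 (chr9:53693817-53694017) and Rab5a (chr17:53488723-53488923), each in an intron of that gene. The last 2 lie between genes upstream of Rab7, at chr6:88053837-88054037 and chr6:88060700-88060900.
Rab6b, 19.1 kb: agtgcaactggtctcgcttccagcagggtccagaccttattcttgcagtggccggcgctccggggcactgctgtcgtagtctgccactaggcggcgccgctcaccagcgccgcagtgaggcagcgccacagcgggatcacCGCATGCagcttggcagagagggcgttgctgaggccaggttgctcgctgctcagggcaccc
Rab10, 18.6 kb: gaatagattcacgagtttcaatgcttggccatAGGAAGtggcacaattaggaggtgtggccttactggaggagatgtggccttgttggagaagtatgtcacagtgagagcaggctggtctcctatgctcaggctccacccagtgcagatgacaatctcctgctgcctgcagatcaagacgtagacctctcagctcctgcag
Rab39, 12.2 kb: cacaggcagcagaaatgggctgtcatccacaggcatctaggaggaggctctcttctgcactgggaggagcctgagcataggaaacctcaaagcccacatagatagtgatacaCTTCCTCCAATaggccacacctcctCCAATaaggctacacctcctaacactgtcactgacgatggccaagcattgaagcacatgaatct
Rab5a, 9.12 kb: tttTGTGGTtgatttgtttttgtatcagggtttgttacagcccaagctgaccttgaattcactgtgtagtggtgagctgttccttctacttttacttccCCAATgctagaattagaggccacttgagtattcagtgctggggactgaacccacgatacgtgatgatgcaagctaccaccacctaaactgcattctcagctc
Rab7, 8.15 kb: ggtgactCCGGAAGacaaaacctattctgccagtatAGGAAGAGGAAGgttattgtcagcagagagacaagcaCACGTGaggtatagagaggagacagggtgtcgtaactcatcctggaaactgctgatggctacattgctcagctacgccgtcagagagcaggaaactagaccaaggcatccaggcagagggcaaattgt
Rab7, 15.2 kb: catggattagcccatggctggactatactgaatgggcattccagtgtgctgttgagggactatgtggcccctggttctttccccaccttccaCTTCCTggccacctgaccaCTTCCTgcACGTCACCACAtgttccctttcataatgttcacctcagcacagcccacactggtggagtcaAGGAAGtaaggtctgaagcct

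The Rab6b region had 19.3 in replicate 1 and 18.6 in replicate 2, the highest of the 220, at a gene whose promoter had 5.47 and 4.55. Its window holds 1 match to GCATGCG, the NRF1 core, on the opposite strand. The Rab10 region had 17.0 and 18.3, with 1 match to AGGAAG, a short ETS form. The Rab39 region had 17.1 and 17.3 and holds 1 AGGAAG and 2 CCAAT. In the genome sequence used, 83.1% of the Rab10 window and 78.1% of the Rab39 window are marked as repeats, as was at least 50% of the window at 14 of the 220 regions (6.36%), beside 4.26% of all distal regions. How reads in repeats were placed was not tested.

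The Rab5a region had 17.2 and 16.7, with 1 match to the RUNX motif TGTGGT and 1 CCAAT. The nearer Rab7 region had 15.4 and 15.8 and holds 1 CCGGAAG, 2 AGGAAG and 1 CACGTG, the E-box of USF, MYC and TFE factors. That 15.2 kb away had 15.1 and 15.2 and holds 3 AGGAAG, 1 TGTGGT and 1 TGACGT, the CRE core. The others among the 10 strongest lay nearer to other genes, as Traf4 (18.03 and 18.7) and Proca1 (17.1 and 16.4) in the window of Rab34 and Rpn1 (16.1 and 14.7) in that of Rab7, or upstream of Rab2a (14.7 and 15.3). Both distal regions counted at Rab34, which lay nearer to Traf4 and Proca1, were thus stronger than any open Rab promoter other than that of Rab12. Rab34 itself was not open by the rule of shared regions, although each replicate listed a region at a start.

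Over the 220 distal windows AGGAAG was found in 121 (55.0%, beside 51.2% of all 48720 distal windows), TGTGGT in 44 (20%, beside 25.6%) and TGANTCA, the core of AP-1 and NF-E2, in 30 (13.6%, beside 10.7%). AGATAA was in 19 (8.64%, beside 9.27%). Of these, TGTGGT lay furthest from its share over all distal windows, and below it.

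The genes that load, extract and switch off Rab proteins were open with few exceptions. Of 82 listed regulators 79 were open (96.3%, beside the 59.8% of all coding genes), with a median of 12.1. Among the 40 GEFs, 38 were open, and Rin1 and Als2cl were not. Ccz1 and Mon1a, whose products together activate Rab7, had 16.7 and 18.2, and 18.4 and 16.3. Dennd6b had 17.0 and 16.2. Of 36 GAPs 35 were open, all but Sgsm1. Tbc1d10a, a GAP with a TBC domain, had 23.8 and 24.1, Tbc1d22b had 22.4 and 18.5, and Rab3gap1, a subunit of the Rab3 GAP complex, had 19.5 and 20.2.

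All 6 genes of prenylation and membrane extraction were open. Chm, the escort protein that presents new Rabs for prenylation, had 18.9 and 20.1. Rabggtb, the catalytic subunit of the prenylating enzyme, had 14.0 and 13.8. Of 53 effectors 44 were open (83.0%), with a median of 11.7. The highest were the golgins Gcc2, with 21.7 and 21.8, and Golga2, with 17.7 and 18.9, and the tether subunit Vps41, with 18.4 and 16.7. The 9 that were not open were Mlph, Myo5b, Myrip, Rims1, Rims2, Rph3al, Sytl3, Sytl4 and Sytl5. The lists were drawn up with earlier results of these data known, and their counts are descriptions.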

How the data were processed

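ATAC-seq regions of 2 megakaryocyte replicates were taken from the authors' deposited peak lists, which are on build mm10 and were made from filtered alignments and a list of excluded regions, per the labels and the text files deposited beside them. The peak caller and the aligner are not given in the sources used here. In the deposited lists, column 7 is the fold enrichment, a ratio over local background by the peak format, columns 8 and 9 are the −log10 p-value and −log10 q-value, and column 10 the summit. The largest p-value in the deposited lists of the replicates was 0.00997. Scaling between samples is not stated, depth is unknown, and 0 columns of values were left unmapped.

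Within a list, peaks sharing 1 bp or more were joined, and the highest fold was retained, on chromosomes 1 to 19 and X, giving 79800 and 81707 regions. Within 500 bp of a Rab start lay 124 peaks of replicate 1 and 123 of replicate 2, which formed 61 shared regions, and 306 and 320 distal peaks lay within 50 kb. Starts came from GENCODE M21, promoter sequences from the RefSeq table, and genome windows and repeat masking from the RefSeq genome of GRCm38. Every Rab gene was accounted for by role. Named with each replicate were the 10 highest and 5 lowest promoters, genes that were not open, the 10 genes with the most distal regions, genes whose strongest region was elsewhere, the 3 most discordant genes, split paralogues, the 10 strongest distal regions, and in the pathway lists the 3 highest and those not open. A few of the listed genes are not reported here. Members, roles and lists were chosen with earlier results of these data known. The split by chromosome was added after the values were seen. Alternatives were the IDR lists, the lists of the pooled series, a fold minimum of 4, 50% reciprocal overlap, other windows, the 5′ end alone, −log10 p, and each replicate left out. Scripts used Python 3.11.15, pandas 2.3.3, numpy 2.4.6, scipy 1.17.1 and pysam 0.24.0, and were tested on simulated regions.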

Additional observations from a re-analysis of the deposited data

How the results depend on the processing

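Of 68 alternative values of the main counts and medians, 59 stayed within 1.5 times or within the spread between replicates, and 9 moved. The median by −log10 p is in another unit and was counted among the 9 without a comparison. Single genes moved more often, with 66 of 482 promoter values and 133 of 504 distal counts beyond those bounds. The number of distal regions near Rab genes fell from 220 to 115 in the IDR lists and to 111 within 20 kb. The median per gene became 1 in the IDR lists, 5 in the replicated-peaks list of the pooled series and 1.5 within 20 kb, beside 1, 4 and 1 over all coding genes. The median promoter enrichment of 11.7 became 12.0 in the replicated-peaks list and 12.5 in the conservative list, and with the strongest region chosen and measured by −log10 p it was 105, beside 78.0 over all open genes. Leaving out each replicate in turn gave medians of 11.5 to 12.0 at promoters, 50 to 51 open genes, 259 to 263 distal regions, a median of 4 per gene, and 53 to 55 genes with a distal region. Open calls changed as follows. Rab4a was lost in the IDR lists, the conservative list and at 4-fold, Rab6b and Rab40b in the IDR lists, Rab12 under 50% reciprocal overlap, and Rab18 and Rab37 with the 5′ end alone. Rab33a and Rab34 were gained in the replicated-peaks list and from replicate 1 alone, and Rab34 from replicate 2 alone. The range over these settings was 46 to 51 open Rab genes. The cause was not tested. No paired analysis was possible because the series has 1 group.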
